A study of Rattus norvegicus with 38 samples.

Results

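The genes described here encode the nuclear subunits of oxidative phosphorylation, together with a few of their assembly factors, as measured in the blood leukocytes of male rats after acetaminophen or methyl parathion. Members were the array probes with 1 annotated symbol that begins with Nduf, Uqcr, Atp5, Sdha, Sdhb, Sdhc, Sdhd or Cox followed by 4, 5, 6, 7 or 8, or that is Cyc1, with a signal-to-noise ratio of at least 3 on at least 3 arrays. Of 26857 gene probes on the array, 6104 carried exactly 1 symbol, 44 matched these names and 41 passed the limit, for 40 genes. Cox7a2 had a pair of probes, called A and B here. Of the 41 members, 39 were tested, for 38 genes, and all 39 stood above the limit on all 38 arrays, with a lowest signal-to-noise ratio of 4.17. The 2 members that were not tested were just inside the rule, Cox6a2 with 5 arrays above the limit and Cox4i2 with 4, and these genes encode the heart and muscle form and a regulated form of cytochrome oxidase subunits. Cox8c and Cox6c-ps1 with 2 arrays each and Cox8b with 1 array lay just outside it. No probe for Cyc1, for Sdhb or for a subunit encoded by mitochondrial DNA was among the members.

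Oxidative phosphorylation takes place in the inner mitochondrial membrane. Complex I oxidises NADH and complex II oxidises succinate, complex III passes the electrons to cytochrome c, and complex IV passes them to oxygen. Protons pumped on the way return through complex V, the ATP synthase, which has a catalytic head, a turning central stalk with a ring of c subunits, and a peripheral stalk. Resting lymphocytes draw on this pathway for much of their ATP, whereas mature neutrophils hold few mitochondria and rely mainly on glycolysis.

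All rats were male CDF Fisher 344 animals of about 4 months, and each array held the leukocyte RNA of 1 rat. They received 1 intraperitoneal injection of vegetable oil alone, of acetaminophen at 1200 mg/kg or of methyl parathion at 15 mg/kg, both suspended in that oil. Acetaminophen is an analgesic that damages the liver at high dose, and methyl parathion is an organophosphate insecticide that inhibits acetylcholinesterase. Each chemical had 4 vehicle rats and 4 rats at each of 4, 12 and 24 h, and 3 rats at 168 h. The vehicle rats of both chemicals were taken 24 h after injection, so that the time since injection was not matched to the rats at 4, 12 and 168 h. All rats were killed by focused microwave irradiation of the head, blood was drawn from the heart, and leukocytes were caught on a filter. The RNA is therefore that of mixed leukocytes, in which fewer cells of a type and less RNA per cell cannot be told apart.

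Values are log2 signals after quantile normalization, and a change is a difference of group means with its standard error. A member rose or fell where the adjusted p of limma was under 0.05, after Benjamini-Hochberg adjustment over all 12805 probes tested. The median raw signal of an array ranged from 176.6 to 389.6, and 36.41% to 51.7% of gene probes stood above the signal-to-noise limit. Pairs of replicate arrays of a group correlated at 0.9146 to 0.972. The 4 time groups of a chemical share its 4 vehicle rats, so that their changes are not independent and are given side by side.

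The promoters of 4 genes are printed, chosen for the changes of these members after quantile normalization. Atp5f1e had the largest change. Uqcrh was among the 11 members that fell 12 h after acetaminophen and rose 168 h after methyl parathion. With median centring Uqcrh passed at neither of these times. Ndufs7 rose most among the complex I subunits 168 h after methyl parathion. Ndufaf4 had the largest change among the assembly factors 12 h after acetaminophen. Each covers 250 bases before and 50 bases after the RefSeq gene start in the rat assembly GRCr8, 5′ to 3′ on the strand of the gene, and capitals mark a searched word. Their regions are chr3:183680123-183680422 on the minus strand for Atp5f1e, chr5:134790833-134791132 on the minus strand for Uqcrh, chr7:10110449-10110748 on the minus strand for Ndufs7 and chr5:43401545-43401844 on the plus strand for Ndufaf4.
Atp5f1e: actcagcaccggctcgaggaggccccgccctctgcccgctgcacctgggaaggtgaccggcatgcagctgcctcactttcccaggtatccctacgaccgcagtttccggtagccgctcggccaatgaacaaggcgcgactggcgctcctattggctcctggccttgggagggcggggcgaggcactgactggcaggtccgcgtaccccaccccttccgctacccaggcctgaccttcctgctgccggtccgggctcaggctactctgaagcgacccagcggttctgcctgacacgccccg
Uqcrh: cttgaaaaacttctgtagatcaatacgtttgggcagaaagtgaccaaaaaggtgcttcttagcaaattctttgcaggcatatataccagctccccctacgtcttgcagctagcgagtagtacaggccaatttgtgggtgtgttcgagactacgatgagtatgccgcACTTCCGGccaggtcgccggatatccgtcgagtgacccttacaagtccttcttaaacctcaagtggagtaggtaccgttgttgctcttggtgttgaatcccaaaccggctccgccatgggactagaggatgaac
Ndufs7: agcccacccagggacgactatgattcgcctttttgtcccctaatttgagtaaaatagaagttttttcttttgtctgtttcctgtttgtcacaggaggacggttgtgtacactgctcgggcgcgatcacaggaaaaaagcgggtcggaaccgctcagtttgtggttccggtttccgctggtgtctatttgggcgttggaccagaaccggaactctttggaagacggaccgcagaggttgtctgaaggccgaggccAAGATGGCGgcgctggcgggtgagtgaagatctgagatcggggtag
Ndufaf4: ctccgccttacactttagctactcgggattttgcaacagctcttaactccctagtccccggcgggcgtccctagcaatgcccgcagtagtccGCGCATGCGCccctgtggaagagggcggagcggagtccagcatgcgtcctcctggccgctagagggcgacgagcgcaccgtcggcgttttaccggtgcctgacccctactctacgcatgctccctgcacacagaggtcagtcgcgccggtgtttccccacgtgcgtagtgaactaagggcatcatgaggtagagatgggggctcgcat
The words searched on both strands were GCGCATGCG, a form of the site of NRF1, a regulator of nuclear genes for respiratory subunits, CCGGAAGT, the core of sites for ETS factors such as GABP, and AAGATGGCG, a form of the YY1 site. RefSeq promoters were found for 37 of the 40 member genes, and Atp5pd, Cox4i2 and Ndufs6-ps1 had no entry. The NRF1 word was present in 5 of the 37 promoters (13.5%), those of Atp5mc2, Atp5me, Atp5mg, Atp5po and Ndufaf4, against 1.52% of 33469 RefSeq promoters and 3.39% of the 3007 promoters of genes tested here. The ETS word was present in 4 (10.8%), those of Ndufs1, Uqcrh, Cox5b and Atp5f1a, against 3.81% and 7.05%. The YY1 word was present in 2 (5.41%), those of Ndufs7 and Atp5pf, against 1.73% and 2.83%. At least 1 of the words was present in 11 of the 37 (29.7%), against 6.64% of all promoters and 12.3% of those of tested genes. In Ndufaf4 the NRF1 word matched on both strands, and these matches overlap. The Atp5f1e window held none of the 3 words. A match describes these letters only, and binding was not measured.

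After acetaminophen most subunits of complexes I and V were lower at 12 h. Of the 39 members, 31 (79.5%) fell and 0 rose, where 20.5% of all probes tested were called lower and 13.8% higher, and 35 of the 39 changes were below 0. The median change was -0.57 on the log2 scale, against -0.03 over all probes tested. In 30 members every 12 h rat lay below every vehicle rat, as did 22.1% of all probes. All 8 complex I probes and all 15 complex V probes fell, against 1 of 3 in complex II, 1 of 2 in complex III, 4 of 6 in complex IV, and 2 of 5 assembly factors and inhibitors. Leaving out any 1 of the 8 rats left 29 or 30 members called.

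This count depends on how the arrays are brought to 1 scale. With each array centred on its median 12 members fell at 12 h, and with each array scaled to its 75th percentile 14 fell, with 0 rising in either. Relative to the median over all probes tested, the member median was -0.54 after quantile normalization and -0.29 under each of the other scalings. Under all 3 normalizations 11 members fell (28.2%), against 13.7% of all probes, and 33 of 39 changes were below 0. These 11 were Ndufs6-ps1, Ndufv1, Ndufv3, Atp5mc1, Atp5mc2, Atp5f1a, Atp5f1c, Atp5f1d, Atp5f1e, Atp5mk and Ndufaf4. Thus 7 of the 11 belonged to complex V and 3 to complex I.

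**Figure D1:**
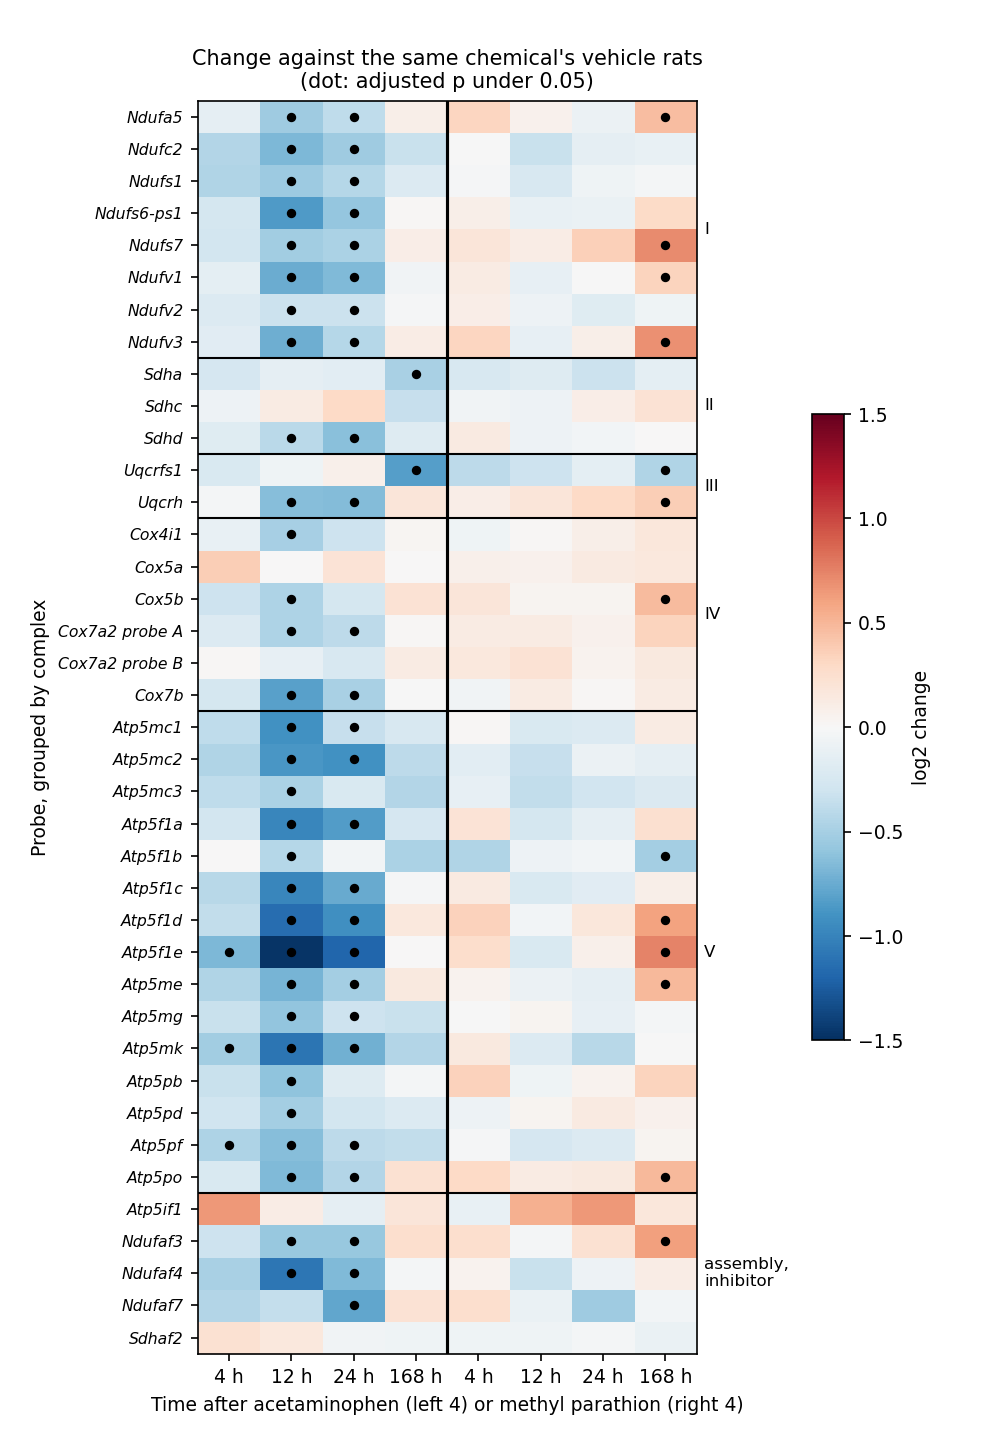
Heat map of the log2 change from the vehicle rats of the same chemical (colour, blue lower and red higher) for the 39 tested members (rows, by complex) at 4, 12, 24 and 168 h (columns, acetaminophen on the left and methyl parathion on the right), after quantile normalization, with a dot for an adjusted p under 0.05. Acetaminophen values at 12 h run from -1.47 for Atp5f1e to 0.16 for Sdhaf2, with 31 dots, of which 12 would be left with median centring, and methyl parathion values at 168 h run from -0.51 to 0.74.

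Among the ATP synthase subunits, Atp5f1e, which encodes the epsilon subunit of the central stalk, changed most. Its log2 signals in the 4 acetaminophen vehicle rats were 17.43, 17.68, 17.36 and 17.95. They were 17.00, 16.72, 16.92 and 17.07 at 4 h, 16.06, 15.99, 16.11 and 16.39 at 12 h, and 16.35, 16.36, 16.64 and 16.30 at 24 h. At 168 h the 3 rats had 17.61, 17.79 and 17.44. The rats at 4, 12 and 24 h all lay below the lowest vehicle rat, and the 168 h rats lay within the vehicle range. The change at 12 h was -1.47 ± 0.17 (limma adjusted p = 3.23e-08), a fold of 0.362, and at 24 h it was -1.19 ± 0.17 (adjusted p = 9.66e-07). Under median centring and 75th percentile scaling the 12 h change was -1.14 and -1.08.

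Atp5f1d, the delta subunit of the central stalk, followed the same order of groups. Its signals were 15.85, 15.82, 15.59 and 16.11 in vehicle rats, 14.72, 14.67, 14.62 and 14.80 at 12 h, and 14.88, 14.92, 15.21 and 14.66 at 24 h. Neither time overlapped the vehicle rats, and the changes were -1.14 and -0.92 (limma adjusted p = 1.25e-06 and 2.8e-05). The gamma subunit gene Atp5f1c fell by 0.97 and the alpha subunit gene Atp5f1a by 0.98 at 12 h. The catalytic beta subunit gene Atp5f1b fell by 0.42 at 12 h, at the edge of the threshold (limma adjusted p = 0.0496), and was -0.05 at 24 h. Atp5f1b signals ran from 14.50 to 14.76 at 12 h and from 14.80 to 15.66 in vehicle rats. Vehicle rat 2, at 15.66, stood above the other 3.

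The 3 genes Atp5mc1, Atp5mc2 and Atp5mc3 encode the same mature c subunit of the turning ring. Atp5mc1 fell by 0.91 and Atp5mc2 by 0.87 at 12 h, and Atp5mc3 by 0.47. At 24 h Atp5mc2 was still at -0.91 (limma adjusted p = 1.02e-05), whereas Atp5mc1 was at -0.34 and Atp5mc3 did not pass at -0.23. Atp5mc2 signals were 15.82, 15.71, 15.56 and 15.66 in vehicle rats, 14.69, 14.69, 15.11 and 14.79 at 12 h, and 14.72, 14.88, 14.96 and 14.55 at 24 h. Both treated groups lay wholly below the vehicle rats. Atp5mc1 was the 1 member that rose from 12 to 24 h, by 0.57 ± 0.13 (limma adjusted p = 0.0039), where 3.47% of all probes were called higher and 3.49% lower and 0 members fell. With median centring that rise did not pass. In 6 members every 24 h rat lay above every 12 h rat, as did 7.85% of all probes, and in 3 below, as did 8.02%. Without 12 h rat 3, or without 24 h rat 4, 2 members were called in this step.

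In the stalk and membrane part of the synthase all 7 subunit genes fell at 12 h. The largest was Atp5mk, also called DAPIT, a small membrane subunit linked to the joining of synthase dimers. Atp5mk signals were 15.90, 15.88, 15.73 and 16.09 in vehicle rats, 15.37, 15.34, 15.39 and 15.43 at 4 h, and 14.71, 14.81, 14.93 and 14.76 at 12 h. The 3 groups did not overlap. The 12 h change was -1.10 ± 0.16 (limma adjusted p = 1.86e-06). Atp5pf, coupling factor 6 of the peripheral stalk, stood at 15.60, 15.55, 15.39 and 15.65 in vehicle rats and at 14.84, 14.95, 14.82 and 15.02 at 12 h, with no overlap and a change of -0.64. The peripheral stalk genes Atp5po, Atp5pb and Atp5pd fell by 0.66, 0.60 and 0.52, and the membrane subunit genes Atp5me and Atp5mg by 0.69 and 0.59.

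In complex I the member with the smallest p at 12 h was annotated Ndufs6-ps1, a pseudogene name of the accessory subunit Ndufs6, so that its signal may be shared with the parent gene. It fell by 0.85 (limma adjusted p = 1.67e-06), with signals from 14.09 to 14.60 at 12 h and from 14.94 to 15.41 in vehicle rats. Ndufv1 encodes the flavoprotein subunit that takes electrons from NADH. Its signals were 14.14, 14.19, 14.03 and 14.36 in vehicle rats, 13.45, 13.51, 13.31 and 13.46 at 12 h, and 13.59, 13.42, 13.64 and 13.42 at 24 h. Neither treated group overlapped the vehicle rats, and the changes were -0.75 ± 0.11 and -0.66 ± 0.11 (limma adjusted p = 2.23e-06 and 1.25e-05). The other complex I members changed by -0.73 for Ndufv3 to -0.32 for Ndufv2 at 12 h. After quantile normalization both neighbours of Ndufv1 in the flavoprotein arm, Ndufv2 and Ndufv3, therefore fell. The iron-sulfur subunit genes Ndufs1 (-0.54) and Ndufs7 (-0.52) also fell. Ndufv2, at -0.11 and -0.05, and Ndufs7 passed under neither median centring nor 75th percentile scaling. Ndufs1 did not pass with median centring.

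After quantile normalization complexes II and III split between members. Sdhd, a membrane anchor of succinate dehydrogenase, had 15.19, 15.10, 15.16 and 15.23 in vehicle rats, 14.67, 14.70, 14.96 and 14.70 at 12 h, and 14.56, 14.57, 14.48 and 14.56 at 24 h. All treated rats at both times lay below all vehicle rats, with changes of -0.41 and -0.63 (limma adjusted p = 0.00479 and 3.53e-05). With median centring Sdhd passed at neither time (limma adjusted p = 0.574 and 0.209). With 75th percentile scaling it passed at 24 h only (limma adjusted p = 0.477 and 0.0474). The flavoprotein gene Sdha, at -0.14 ± 0.14, and the other anchor gene Sdhc, at 0.12 ± 0.15, did not pass at 12 h, and the 95% interval of the Sdhc change ran from -0.19 to 0.44. In complex III, Uqcrh encodes the hinge protein beside cytochrome c1. Uqcrh signals were 17.71, 17.83, 17.60 and 17.74 in vehicle rats, 17.05, 16.99, 17.13 and 17.16 at 12 h, and 17.01, 17.02, 16.85 and 17.40 at 24 h. No treated rat at these times reached the lowest vehicle rat, and the changes were -0.64 and -0.65 (limma adjusted p = 6.32e-05 and 4.11e-05). With median centring and 75th percentile scaling Uqcrh passed at neither time (limma adjusted p from 0.16 to 0.358), with changes from -0.33 to -0.21. The Rieske iron-sulfur protein gene Uqcrfs1 had 13.57, 13.62, 13.40 and 13.55 at 12 h against 13.53, 13.85, 13.51 and 13.50 in vehicle rats. These groups overlapped, at a change of -0.06 with an interval from -0.34 to 0.22.

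In complex IV the small subunit gene Cox7b fell most. Its signals were 16.93, 17.44, 16.97 and 17.17 in vehicle rats, 16.40, 16.43, 16.23 and 16.20 at 12 h, and 16.58, 16.63, 16.79 and 16.58 at 24 h. Both treated groups lay below the vehicle rats, with changes of -0.81 ± 0.14 and -0.48 ± 0.14 (limma adjusted p = 1.72e-05 and 0.00622). With median centring and 75th percentile scaling the 12 h change of Cox7b was -0.49 and -0.43 (limma adjusted p = 0.0399 and 0.066). Its 24 h change was -0.06 and -0.01 under these scalings and did not pass. Cox4i1, Cox5b and probe A of Cox7a2 fell by 0.50, 0.46 and 0.46 at 12 h. Under the other scalings none of these falls passed, with changes from -0.19 to -0.08. Probe B of Cox7a2 did not pass at -0.12, so that the probes of this gene disagreed. Cox5a, chosen after its values were seen, had 16.10, 16.32, 16.17 and 16.09 at 12 h against 16.33, 15.93, 16.25 and 16.16 in vehicle rats. These overlapped, and the interval of the Cox5a change ran from -0.26 to 0.26.

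Of the assembly factors, Ndufaf4 and Ndufaf3, which act together on early intermediates of complex I, fell at 12 h by 1.09 and 0.57. Ndufaf4 signals were 12.36, 11.81, 12.51 and 12.41 in vehicle rats and 11.16, 11.06, 11.59 and 10.93 at 12 h. All 12 h rats lay below the lowest vehicle rat, and the limma adjusted p was 9.15e-06. Ndufaf7 encodes a methyltransferase that modifies a core complex I subunit. It did not pass at 12 h (-0.35) and fell at 24 h by 0.78 (limma adjusted p = 0.000362). The 24 h signals of Ndufaf7 were 11.52, 11.45, 11.52 and 11.57, against 12.26, 12.18, 12.28 and 12.48 in vehicle rats, with no overlap. Sdhaf2, which serves the flavin insertion into Sdha, and Atp5if1, which encodes the inhibitor that binds the synthase, did not pass at 12 h, with 0.16 and 0.11.

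**Figure D2:**
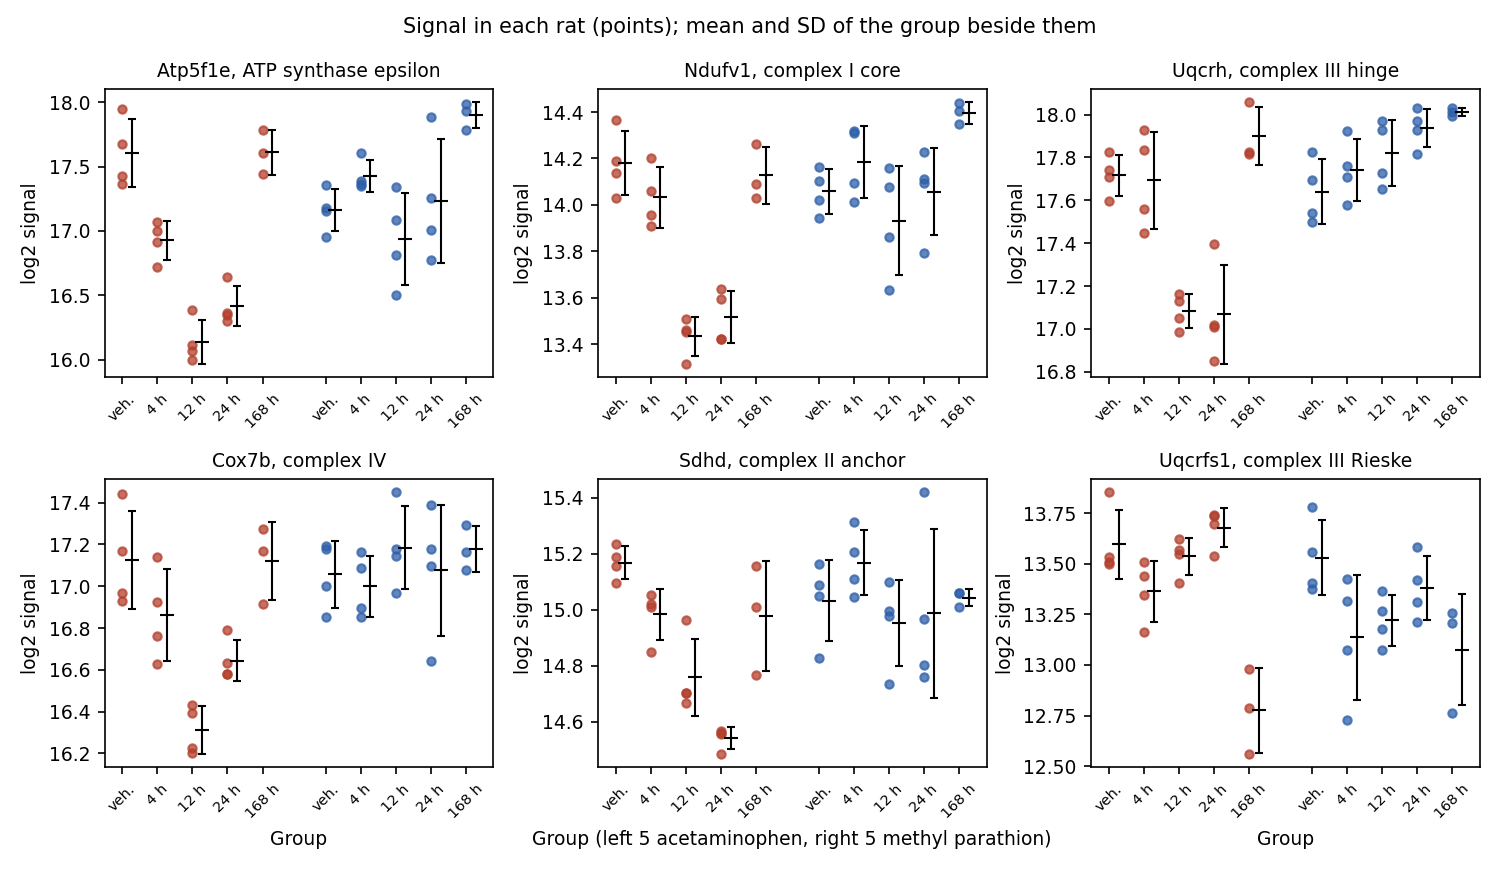
Log2 signal after quantile normalization (y axis) in each rat (points, red for acetaminophen and blue for methyl parathion) by group (x axis, vehicle and hours after dosing) for Atp5f1e, Ndufv1, Uqcrh, Cox7b, Sdhd and Uqcrfs1, with the group mean and SD beside the points. Atp5f1e lies between 15.99 and 16.39 at 12 h after acetaminophen and between 17.36 and 17.95 in the vehicle rats, whereas Uqcrfs1 overlaps its vehicle rats at 12 h and lies between 12.56 and 12.98 at 168 h.

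At 4 h after acetaminophen 3 members fell and 0 rose, where 3.68% of all probes were called lower and 2.9% higher. These were Atp5f1e (-0.68, limma adjusted p = 0.014), Atp5pf (-0.47, 0.0203) and Atp5mk (-0.52, 0.0497). The median change was -0.28, against -0.03 over all probes, 34 of 39 changes were below 0, and 20 members (51.3%) had an unadjusted p under 0.05, as did 22.3% of all probes. In 9 members every 4 h rat lay below every vehicle rat, as did 7.72% of all probes, and in 1 member every 4 h rat lay above, as did 4.05%. The count moved with single rats. It was 13 without 4 h rat 1, 5 without vehicle rat 2, 1 without vehicle rat 1, and 0 without vehicle rat 4, 4 h rat 2 or 4 h rat 3. Median centring left 0 and 75th percentile scaling 1, Atp5pf being the member called in the latter. Atp5f1e did not pass under either (limma adjusted p = 0.12 and 0.0917). Atp5if1 was at 0.66 ± 0.23 and did not pass (limma adjusted p = 0.0859). From 4 to 12 h 17 members fell and 0 rose, where 13.6% of all probes were called lower and 12.7% higher. In 12 members every 12 h rat lay below every 4 h rat, as did 14.3% of all probes. With median centring 0 members passed in this step and with 75th percentile scaling 4 fell, and relative to all probes the member median was -0.15 after quantile normalization and 0.02 under the other scalings.

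At 24 h after acetaminophen 26 members fell (66.7%) and 0 rose, where 20.9% of all probes were called lower and 14.7% higher. The median change was -0.43, against -0.06 over all probes, and in 23 members every 24 h rat lay below every vehicle rat, as did 21.4% of all probes. All 8 complex I members fell, as did 11 of 15 in complex V, 2 of 6 in complex IV, Sdhd in complex II, Uqcrh in complex III, and 3 of 5 assembly factors and inhibitors. Without vehicle rat 4, or without 24 h rat 4, 17 members were called. With median centring 5 fell, and with 75th percentile scaling 8 fell and 1, Cox5a, rose. Relative to all probes, the member median was -0.36 after quantile normalization and -0.11 under the other scalings. Under quantile normalization, median centring and 75th percentile scaling the member median itself was -0.43, -0.17 and -0.12. Over probes at least as bright as the dimmest member the median was -0.19, -0.08 and -0.03. Ndufv1, Atp5mc2, Atp5f1d, Atp5f1e and Ndufaf7 fell under all 3 normalizations (12.8% of members), and so did 13.4% of all probes. The share of members at 24 h under this stricter rule was thus near the background. Of the members called after quantile normalization, Atp5mg was at 0.09 and 0.13 under the other scalings. Probe A of Cox7a2 was at -0.02 and 0.03, and Cox7b at -0.06 and -0.01.

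**Figure D3:**
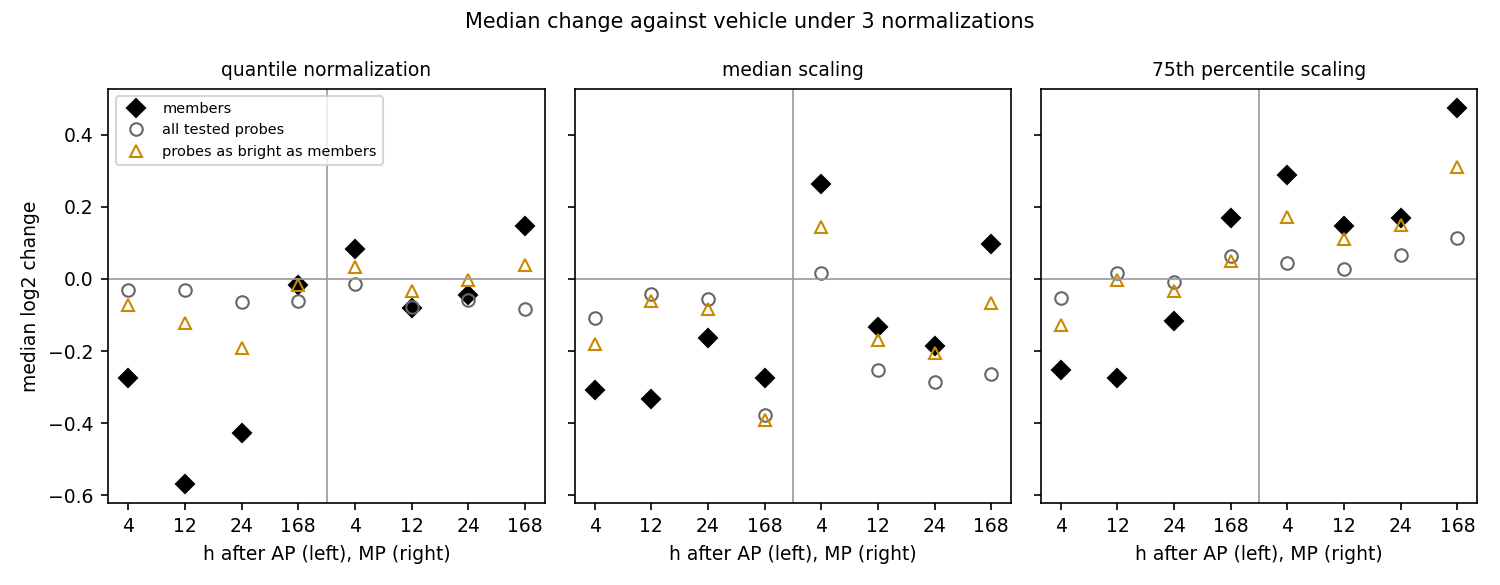
Median log2 change from vehicle (y axis) over the members (diamonds), over all tested probes (circles) and over probes at least as bright as the dimmest member (triangles), by hours after acetaminophen or methyl parathion (x axis), in 1 panel for each of the 3 normalizations. The member median 12 h after acetaminophen is -0.57, -0.33 and -0.28, and at 24 h it is -0.43, -0.17 and -0.12. The median at 168 h after acetaminophen is below 0 with median centring and above 0 with 75th percentile scaling.

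At 168 h after acetaminophen 2 members, Uqcrfs1 and Sdha, fell and 0 rose, where 8.02% of all probes were called lower and 3.08% higher. The median change was -0.02, and 22 of 39 changes were below 0. Atp5f1e, the member with the largest fall at 12 h, was at 0.01. The Uqcrfs1 signals at 168 h were 12.98, 12.79 and 12.56, below all 4 vehicle rats, and the change was -0.82 ± 0.15 (limma adjusted p = 0.000977). Sdha signals were 12.58, 12.18 and 12.78 against 13.12, 12.95, 12.99 and 12.94 in vehicle rats, a change of -0.49 (adjusted p = 0.0411). Neither member overlapped its vehicle rats at 168 h, and neither had passed at 12 or 24 h. Sdha lost its call without any 1 of the 4 vehicle rats or without 168 h rat 2, which left 1 member called. Uqcrfs1 fell under all 3 normalizations. In 11 members all 168 h rats lay below all vehicle rats, as did 17.8% of all probes, and in 1 member all lay above, as did 9.67%.

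From 24 to 168 h after acetaminophen 22 members rose (56.4%) and 2 fell, where 18.4% of all probes were called higher and 19.3% lower. In 21 members every 168 h rat lay above every 24 h rat, as did 20.9% of all probes, and in 3 below, as did 21%. Atp5f1e rose by 1.20 ± 0.19 (limma adjusted p = 3.55e-06), Atp5f1d by 1.08, Uqcrh by 0.83 and Ndufaf3 by 0.81. Uqcrfs1 fell by 0.90 ± 0.15 (adjusted p = 7.71e-06) and Sdhc by 0.65, against the direction of the majority. The spot of Cox7a2 probe A in 168 h rat 3 was flagged and left out, and its rise of 0.42 rests on 2 rats at 168 h. Without 168 h rat 2 14 members were called. With median centring 0 rose and 7 fell, and with 75th percentile scaling 11 rose and 3 fell. Under median centring the median over all probes moved to -0.29, and relative to all probes the member median was 0.40, 0.08 and 0.11 under quantile normalization, median centring and 75th percentile scaling. Under all 3 only the falls of Sdhc and Uqcrfs1 were called. The rises of 9 members, among them Sdhd, Cox7b, Cox5b and Atp5mc2, were below 0 with median centring.

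After methyl parathion no member passed at 4, 12 or 24 h. At 4 h 0 members were called, 7 had an unadjusted p under 0.05 and the median change was 0.08. Of all probes 0% were called lower and 0% higher at that time. At 12 h 0 were called and 4 had an unadjusted p under 0.05, where 4.92% of all probes were called lower and 3.12% higher, and at 24 h 0 were called and 6 had an unadjusted p under 0.05, where 1.66% were called lower and 0.726% higher. At an unadjusted p under 0.05 stood 17.9%, 10.3% and 15.4% of members at 4, 12 and 24 h, against 10.7%, 23.3% and 17.1% of all probes, so that the member shares at 12 and 24 h were not above the background. The member medians at 12 and 24 h were -0.08 and -0.05, against -0.08 and -0.06 over all probes. Atp5f1e was at 0.27, -0.22 and 0.07 at these times and Uqcrfs1 at -0.40, -0.31 and -0.15. Every 4 h rat lay below every vehicle rat in 1 member (2.17% of all probes) and above in 1 (6.11%). At 12 h these were 1 (7.5%) and 0 (3.55%), and at 24 h 1 (3.98%) and 0 (2.89%). The Sdha spot of 4 h rat 4 was flagged and left out. Other settings gave calls at these times. Array quality weights gave 7 called members at 12 h and 3 at 24 h, 75th percentile scaling gave 3 and 2 that rose, and with the 8 vehicle rats of both chemicals as controls 8 were called at 12 h. Without vehicle rat 3, without 24 h rat 1 or without 24 h rat 2, 1 member was called at 24 h.

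At 168 h after methyl parathion 11 members rose (28.2%) and 2 fell, where 9.1% of all probes were called higher and 9.13% lower. The median change was 0.15, against -0.08 over all probes, and in 13 members every 168 h rat lay above every vehicle rat, as did 15.9% of all probes, and in 1 below, as did 12.3%. Of the 11, 4 belonged to complex I (Ndufs7, Ndufv3, Ndufa5 and Ndufv1), 4 to complex V (Atp5f1e, Atp5f1d, Atp5me and Atp5po), and Uqcrh, Cox5b and Ndufaf3 were the others. The 2 that fell were Uqcrfs1 and the beta subunit gene Atp5f1b.

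Atp5f1e signals were 17.36, 16.96, 17.18 and 17.15 in the methyl parathion vehicle rats and 17.93, 17.98 and 17.79 at 168 h. The groups did not overlap, and the change was 0.74 ± 0.19 (limma adjusted p = 0.00626). Ndufs7, the iron-sulfur subunit at the end of the electron path to ubiquinone, stood at 14.83, 14.73, 14.90 and 14.83 in vehicle rats and at 15.47, 15.72 and 15.42 at 168 h. All 3 treated rats lay above all 4 vehicle rats, at a change of 0.71 ± 0.18 (limma adjusted p = 0.00529). Ndufv3, a small subunit of the flavoprotein arm, had 13.82, 13.69, 13.87 and 13.45 in vehicle rats and 14.43, 14.52 and 14.25 at 168 h, again apart, at 0.69 (limma adjusted p = 0.00308). Uqcrh was at 17.50, 17.54, 17.83 and 17.70 in vehicle rats and at 18.03, 17.99 and 18.01 at 168 h, at 0.37 (limma adjusted p = 0.043).

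Uqcrfs1 had 13.56, 13.41, 13.78 and 13.38 in vehicle rats and 12.76, 13.21 and 13.26 at 168 h. It fell by 0.45 (limma adjusted p = 0.0296), with no overlap. With median centring and 75th percentile scaling this fall did not pass (limma adjusted p = 0.147 and 0.385). Uqcrfs1 was the 1 member that fell at 168 h after both chemicals, 1 of 2 (50%) for each. Over all probes tested, the shared falls at 168 h were 28.2% of those after acetaminophen and 24.8% of those after methyl parathion. Atp5f1b had 14.92, 14.97, 15.46 and 15.14 in vehicle rats and 14.45, 14.42 and 14.97 at 168 h. Rat 3 of the treated group lay within the vehicle range, and the fall of 0.51 was at the edge (limma adjusted p = 0.0464). All 11 members that rose were among the 31 that had fallen 12 h after acetaminophen, which is 35.5% of those 31, and 10 of them (90.9%) were among the 26 that had fallen at 24 h (38.5%). Since 79.5% of the members had fallen at 12 h and 66.7% at 24 h, most of any 11 members would be among them. Of the 1165 probes that rose at 168 h over all probes tested, 36.2% had fallen at 12 h and 40.1% at 24 h, where 20.5% and 20.9% of all probes fell. The methyl parathion and acetaminophen comparisons share no rat.

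The rise at 168 h moved with single rats and with the scaling. In all 13 members were called, against 4 without 168 h rat 2, 6 without 168 h rat 1 and 7 without vehicle rat 4. With median centring 2 rose and 0 fell, and with 75th percentile scaling 23 rose and 0 fell. Median centring moved the median over all probes to -0.26. Relative to all probes, the member median was 0.23 after quantile normalization and 0.36 under each of the others. Ndufs7 and Atp5f1e rose under all 3 normalizations (5.13% of members), as did 1.27% of all probes. From 4 to 12 h and from 12 to 24 h after methyl parathion 0 members passed by limma, with 12 and 1 (30.8% and 2.56%) at an unadjusted p under 0.05 against 20.9% and 17.4% of all probes, where 0.781% and 0.515% of all probes were called lower and 0.508% and 0.203% higher. From 24 to 168 h 0 members passed, where 0.0156% of all probes were called higher and 0.0156% lower. In this step 16 members (41%) had an unadjusted p under 0.05, against 18.9% of all probes. Without 24 h rat 2 3 members were called in that step and without 24 h rat 3 4 were.

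The chemicals were compared as the change after acetaminophen minus the change after methyl parathion at the same hour. At 12 h 17 members (43.6%) had a lower change after acetaminophen and 0 a higher one, where 5.38% of all probes were called lower and 6.04% higher. At 24 h 12 members (30.8%) were lower and 0 higher, where 13.8% were called lower and 11.9% higher. The largest differences at 12 h were those of Atp5f1e, at -1.24 ± 0.24 (limma adjusted p = 0.00119), Atp5f1d, at -1.10 ± 0.23 (0.0025), and Cox7b, at -0.94 ± 0.20 (0.00225). At 24 h they were those of Atp5f1e, at -1.26 (limma adjusted p = 0.000204), Atp5f1d, at -1.09 (0.000655), and Uqcrh, at -0.95 (8.09e-05). Uqcrfs1, Sdha, Sdhc and Cox5a did not pass in either, with differences from -0.06 to 0.25. At 4 and 168 h 0 members passed by limma, with 17 and 7 (43.6% and 17.9%) at an unadjusted p under 0.05, against 14.7% and 21.1% of all probes. Of all probes 0% were called either way at 4 h, and 0.726% lower and 2.67% higher at 168 h. Without acetaminophen rat 1 of the 4 h group 4 members were called at 4 h, and without methyl parathion vehicle rat 4 11 were called at 12 h.

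These differences also depended on the scaling. With median centring 0 members passed at 12 or 24 h, and with 75th percentile scaling 12 and 8 did, all lower after acetaminophen. Median centring moved the median difference over all probes to 0.18 at 12 h and 0.24 at 24 h. Relative to all probes, the member median at 12 h was -0.55 after quantile normalization and -0.50 under each of the others, and at 24 h it was -0.41 and -0.26. Between the vehicle groups of the 2 chemicals limma called 0 members, with 3 (7.69%) at an unadjusted p under 0.05 against 10.8% of all probes. Of all probes 0% were called between these groups.

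**Figure D4:**
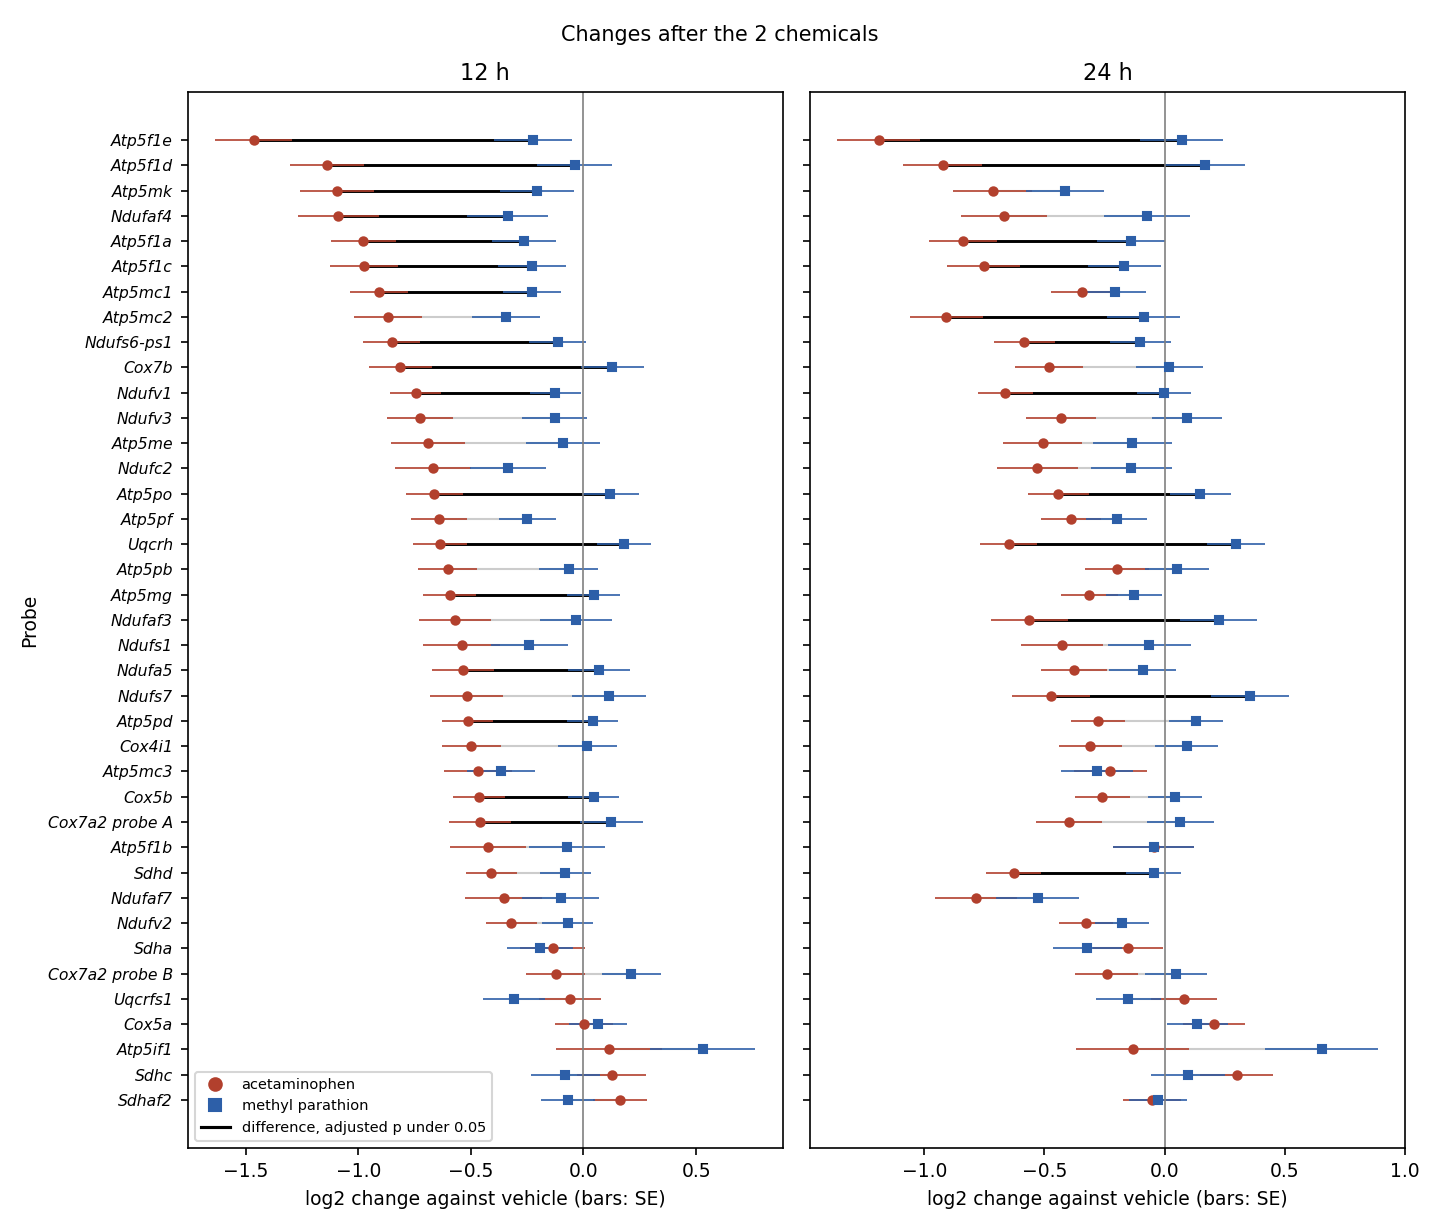
Log2 change from vehicle (x axis) after acetaminophen (red circles) and methyl parathion (blue squares) for each member (rows), at 12 h and at 24 h, after quantile normalization, with standard errors as thin bars and a black line where the difference had an adjusted p under 0.05. The 17 black lines at 12 h and 12 at 24 h have the acetaminophen point on the left, at -1.47 for Atp5f1e at 12 h. With median centring none of these differences passed.

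Markers of leukocyte types moved in the same rats. The sum of the T cell marker signals, on the log2 scale, was 18.03 to 18.31 in the acetaminophen vehicle rats, 16.27 to 16.72 at 12 h and 16.53 to 17.12 at 24 h. All 12 tested T cell marker probes fell at 12 and at 24 h, with median changes of -1.79 and -1.41, and the co-receptor genes Cd4 and Cd8a and the receptor chain gene Cd3d were among them. Neutrophil marker sums were 20.28 to 20.79 in vehicle rats, 21.59 to 21.97 at 12 h and 21.59 to 22.06 at 24 h. Of the 12 neutrophil probes, 10 rose and 0 fell at 12 h, and 10 rose and 2, Defa5 and Np4, fell at 24 h. Under each of the other scalings the same numbers of both lists were called at these times. The part of these shifts in the member changes was not tested. B cells were followed by 3 probes, of which 2 fell at 12 h and 3 at 24 h, and natural killer cells by 14, of which 4 fell and 2, Klrb1b and Ncr1, rose at 12 h, and 12 fell and 1, Klrb1b, rose at 24 h. The summed natural killer signals were 19.69 to 20.06 in vehicle rats, 19.85 to 20.32 at 12 h and 17.74 to 18.63 at 24 h. Of 5 monocyte probes 3 rose at 12 h, Cd14 by 1.98, Ccr2 by 1.72 and Lyz2 by 0.66, and 0 fell, with sums of 19.83 to 20.82 in vehicle rats and 20.90 to 21.18 at 12 h. At 24 h Cd14 and Ccr2 rose and Cx3cr1 fell. At 4 h 7 T cell and 3 B cell probes fell. No T cell or neutrophil marker on the array was below the signal-to-noise limit on all 38 arrays.

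With the main settings, the T cell markers and the members had calls at different times after methyl parathion. With 75th percentile scaling 3 members rose at 12 h. Array quality weights, or the vehicle rats of both chemicals as controls, also gave member calls at that time. At 12 h 11 of 12 T cell probes fell, with a median of -1.03 and sums of 16.54 to 17.81 against 17.80 to 18.24 in vehicle rats, while 0 of 39 members passed. At 168 h 0 of 12 T cell probes passed, with sums of 17.62 to 17.97, while 11 members rose. Per rat, the mean member change ran from -0.61 to -0.49 at 12 h after acetaminophen, where the mean T cell change ran from -1.98 to -1.56. At 12 h after methyl parathion these ranges were -0.18 to 0.06 and -1.46 to -0.27. The mean neutrophil marker change of those methyl parathion rats ran from -0.05 to 1.73. The part of the marker shifts in the member changes was not tested.

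**Figure D5:**
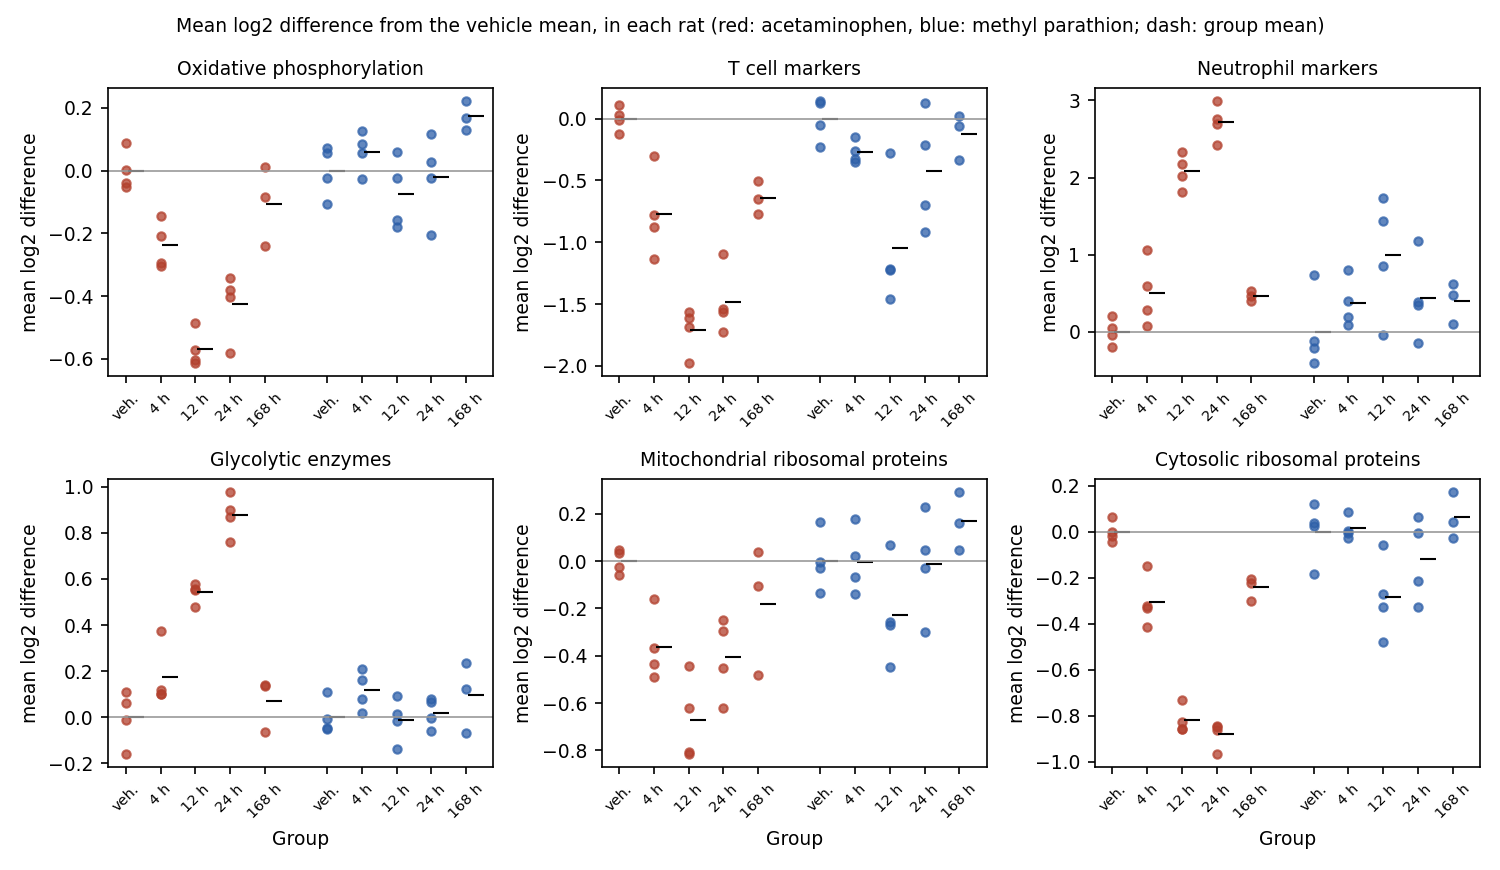
Mean log2 difference from the vehicle mean of the same chemical (y axis) in each rat (points, red for acetaminophen and blue for methyl parathion) by group (x axis), over the members and 5 other gene lists (panels), with a dash for the group mean, after quantile normalization. At 12 h after acetaminophen the members lie between -0.61 and -0.49, T cell markers between -1.98 and -1.56 and glycolytic enzymes between 0.48 and 0.58.

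Hepatocyte transcripts, which can reach blood from damaged liver, also moved. Of 17 hepatocyte probes 12 were tested, and 4 rose at 12 h and 9 at 24 h after acetaminophen, Tf (transferrin) by 2.48 and 4.08. Their summed signals were 16.56 to 18.09 in vehicle rats, 18.07 to 18.35 at 12 h and 19.25 to 19.63 at 24 h. Cps1 and Ambp, 2 defining hepatocyte genes, were below the signal-to-noise limit on all 38 arrays. The part of this RNA in the member changes was not tested. Platelet probes (3 of 4) and erythroid probes (2 of 6) rose at 4 h after acetaminophen.

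The rest of the mitochondrial programme is described by lists for the other steps of respiration. Of 10 probes of the tricarboxylic acid cycle and pyruvate dehydrogenase, which supply the electrons, 4 fell and 0 rose at 12 h after acetaminophen, with a median of -0.43. They were Idh3a (-1.29) and Idh3b (-0.82), subunits of the NAD-dependent isocitrate dehydrogenase, Suclg1 (-0.86) and Mdh2 (-0.61). In the methyl parathion rats at 168 h 3 of these 10 fell, the pyruvate dehydrogenase genes Pdha1 (-0.99) and Pdhb (-0.54) and the 2-oxoglutarate dehydrogenase gene Dlst (-1.42), and 0 rose. With each of the other scalings 2 fell, and the median of this list at 168 h was -0.21 after quantile normalization and 0.01 with 75th percentile scaling. Among the 8 electron carrier and coenzyme Q probes, the cytochrome c gene Cycs fell by 0.67 at 12 h after acetaminophen and Coq10b rose by 0.77. In this list 3 fell and 1 rose, and with median centring 0 fell and 1 rose.

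Among 6 assembly factors outside the naming rule, Lrpprc, which stabilises mitochondrial mRNAs, fell by 1.05 ± 0.14 (limma adjusted p = 2.71e-07), Ecsit, a complex I assembly factor, by 0.84 and Surf1, a complex IV assembly factor, by 0.33 at 12 h. The same 3 fell at 24 h, and Ecsit rose by 0.89 at 168 h after methyl parathion. Of 11 mitochondrial ribosomal probes 7 fell and 0 rose at 12 h after acetaminophen, the largest being Mrpl23 (-1.24). Of 15 import and chaperone probes 8 fell and 0 rose, among them the chaperonin genes Hspe1 (-1.28) and Hspd1 (-1.10). Medians of these lists were -0.59, -0.59 and -0.70, and with median centring -0.64, -0.61 and -0.51. Of 13 carrier probes 5 fell, among them the adenine nucleotide translocase gene Slc25a5 (-0.80) and the phosphate carrier gene Slc25a3 (-0.60), which bring ADP and phosphate to the synthase. With median centring 1 carrier probe fell, and with 75th percentile scaling 4 fell and 1 rose. Of 9 regulators 4 fell, among them Tfam (-0.80), which packages mitochondrial DNA, and Myc (-1.39).

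Lists outside mitochondria gave the scale of these shifts. Cytosolic ribosomal proteins fell in 36 of 40 probes at 12 h and 37 of 40 at 24 h after acetaminophen, with medians of -0.81 and -0.92, and 34 fell at 12 h with median centring. Proteasome subunits fell in 12 of 28 probes at 12 h, with a median of -0.30, and with median centring 3 fell and 1 rose. The numbers at 24 h were 10 lower and 1 higher, and 0 and 0 with median centring. Glycolytic enzymes and transporters moved both ways. Of 23 probes 12 rose and 5 fell at 12 h, and 14 rose and 4 fell at 24 h. Those that rose included the hexokinase gene Hk2 (2.75), the triose phosphate isomerase gene Tpi1 (1.64) and the glucose transporter gene Slc2a3 (2.38) at 12 h, and those that fell Eno3 (-2.61), Ldhb (-1.40), Pfkm (-1.59), Pfkp (-1.26) and Gpi (-0.40). In the methyl parathion rats at 168 h 4 glycolytic probes rose and 2 fell. The difference between any of these lists and the members was not tested.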

How the data were processed

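Per the labels' protocols, leukocyte RNA depleted of globin mRNA was labelled with digoxygenin and detected by chemiluminescence on 38 Applied Biosystems arrays, 1 per rat. For every probe the authors deposited a linear signal intensity and, as a score, its signal-to-noise ratio. A further deposited column, of other kind, holds whole-number flags, whose meaning is not given in the sources used here. The log2 values of the series table that the authors deposited equalled quantile-normalized log2 signals computed here to within 5e-09. The software of the upstream steps is not given in the sources used here, and neither are slides or scan dates, so that no batch could be tested.

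Signals of 26857 gene probes were quantile-normalized, raised to a floor at their 5th percentile (84.7) and put on the log2 scale. Flags of 5000 or more were assumed to mark failed spots, and those values (0.9598%) were set missing. A probe was tested if any group had most of its arrays at a signal-to-noise ratio of 3 or more and if every group kept 2 values or more, which left 12805. The 10 groups entered 1 linear model (limma 3.58.1, R 4.3.3, with 28 residual and 6.31 prior degrees of freedom and a trended prior), tested two-sided with Benjamini-Hochberg adjustment over all tested probes at 0.05. The linear model and its adjustment were tested on simulated log2 values with known changes. Normalization, floor and detection filter were not part of that test. Precision is limited by how many arrays each group has, since signals are not molecule counts. Nothing in the labels ties replicate numbers across groups, and the p-values set differences of group means against the spread between rats.

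Members and lists were chosen with earlier results of these data known. Values of each rat are given per complex for the member with the smallest p at 12 h and the largest change at 24 h after acetaminophen, for the 3 largest calls in each direction in each comparison with vehicle, for calls against the majority, for the 3 largest differences between chemicals, and for members called alike after both chemicals at 168 h. Of the other lists, the 2 genes with the smallest p in a comparison are named by rule, and further genes were chosen after their values were seen. Promoters are RefSeq sequences of GRCr8. Alternatives were other scalings, filters, weights, variance priors, control groups, arrays in the fit, a replicate block and leaving out each rat. Calls under all 3 normalizations, list counts under each scaling and a background of probes at least as bright as the dimmest member were added after seeing the data.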

Additional observations from a re-analysis of the deposited data

Results flagged for a closer look

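In groups of 4 rats, the log2 signal of 1 rat stood apart from the other 3 in 9 of 135 groups examined for 17 members, and in 0 of 8 groups for the mean of the members, and chance alone gives about 1 in 20 such groups. After acetaminophen, Atp5f1e in 24 h rat 3 was at 16.64 (the others 16.30 to 16.36), Ndufs6-ps1 in 24 h rat 4 at 14.33 (14.60 to 14.61), and Sdhd in 24 h rat 3 at 14.48 (14.56 to 14.57). At 12 h rat 3 was high for Sdha, at 13.04 (12.81 in the others), and for Sdhd, at 14.96 (14.67 to 14.70). Uqcrfs1 in vehicle rat 2 was at 13.85 (13.50 to 13.53). After methyl parathion, Atp5f1e in 4 h rat 1 was at 17.61 (17.35 to 17.39), Ndufaf4 in 24 h rat 2 at 12.68 (11.99 to 12.11), and Ndufs6-ps1 in 24 h rat 1 at 14.63 (15.00 to 15.02). Acetaminophen rat 3 of the 12 h group and rat 3 of the 24 h group each appear for more than 1 member.

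The change after acetaminophen was lower than that after methyl parathion, by a test of the difference in limma, for 17 members at 12 h and 12 members at 24 h. Atp5f1e differed by -1.24 and -1.26, Atp5f1d by -1.10 and -1.09, Cox7b by -0.94 at 12 h and Uqcrh by -0.95 at 24 h. With median centring none of these differences passed.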

How the results depend on the processing

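No member call turned into a call in the other direction under any setting run. Median centring gave 0 called members at 4 h, 12 at 12 h, 5 at 24 h and 4 at 168 h after acetaminophen, 2 at 168 h after methyl parathion, 0 for the differences at 12 and 24 h, and 0, 0 and 7 for the steps to 12, 24 and 168 h after acetaminophen. With 75th percentile scaling these were 1, 14, 9 and 1 after acetaminophen, 3, 2 and 23 at 12, 24 and 168 h after methyl parathion, and 4 and 14 for the steps to 12 and 168 h. Array weights gave 20 and 6 at 4 and 168 h after acetaminophen, 7 and 3 at 12 and 24 h after methyl parathion, 11, 26 and 3 for the differences at 4, 12 and 168 h, 15 for the step from 12 to 24 h after acetaminophen, 7 for that from 4 to 12 h after methyl parathion, and 2 between the vehicle groups. Without the detection filter the counts were 1 at 4 h and 1 at 168 h after acetaminophen and 7 at 168 h after methyl parathion. At 168 h after acetaminophen 1 was called with the series table as deposited, with the limit in at least 3 arrays, and without the variance trend. With only the groups compared the counts were 0 at 4 h and 3 from 12 to 24 h after acetaminophen, and with both vehicle groups as 1 control group 5 at 4 h after acetaminophen and 8 at 12 h after methyl parathion. The causes were not tested. Leaving out 1 rat at a time gave 0 to 13, 29 to 30, 17 to 25 and 1 to 2 called members at 4, 12, 24 and 168 h after acetaminophen, 0 to 0, 0 to 0, 0 to 1 and 4 to 11 after methyl parathion, 0 to 4, 11 to 19, 10 to 16 and 0 to 0 for the differences, 12 to 18, 1 to 2 and 14 to 24 for the steps after acetaminophen, 0 to 3, 0 to 0 and 0 to 4 for those after methyl parathion, and 0 to 0 between the vehicle groups. The step from 4 to 12 h after methyl parathion gave 3 without 12 h rat 2. Each treated rat correlated with the same-numbered vehicle rat of its chemical at -0.398 to 0.212 in their deviations from the group means. Differently numbered rats were not compared, so that this cannot decide whether the numbers pair the rats. With the replicate block every count stayed within 1.5 times its value, with 31 called members at 12 h after acetaminophen. Relative to 4297 probes at least as bright as the dimmest member, the member median at 12 h after acetaminophen was -0.45 after quantile normalization and -0.27 with median centring.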

Other observations

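Antioxidant genes of mitochondria did not share 1 direction after acetaminophen. Prdx5, a peroxiredoxin, rose by 2.36 ± 0.20 at 12 h and 3.25 ± 0.20 at 24 h (limma adjusted p = 6.43e-11 and 7.55e-15). Gsr, glutathione reductase, rose by 1.26 and 1.06, while Txnrd2, the mitochondrial thioredoxin reductase, fell by 1.05 and 0.85 and Gpx4 by 0.72 at 24 h. At 168 h after methyl parathion Txnrd2 rose by 0.66 and Txn2, mitochondrial thioredoxin, by 0.44.

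At 168 h after methyl parathion Gpd2, the mitochondrial glycerol 3-phosphate dehydrogenase that passes electrons to ubiquinone, rose by 1.06 ± 0.22 (limma adjusted p = 0.00137) and Coq10b fell by 0.68. The biogenesis coactivator gene Ppargc1a fell by 1.35 and Yy1 by 0.52 in the same rats. In the rats 24 h after acetaminophen Nkg7 and Klrd1, genes of cytotoxic lymphocytes, fell by 2.40 and 1.78.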
